A study of Mus musculus with 23 samples.

Results

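The matrix metalloproteinases and their tissue inhibitors were followed through mouse colon and colon tumors as 10 genes of the 55449 counted by RNA sequencing: Mmp2, Mmp3, Mmp7, Mmp9, Mmp10, Mmp12, Mmp13, Mmp14, Timp1 and Timp3. They were taken by gene symbol from a list of names drawn up with earlier results of these data known, and all 10 were found in the count table. Of the 10, 9 were higher in tumors than in non-tumor colon of mice given either bacterial strain, where 16.7% of all genes tested were higher with the control strain and 14.6% with the bile salt hydrolase strain. None passed the test between the strains within one tissue. The nearest to doing so was Mmp7, which was higher in every tumor of mice carrying the bile salt hydrolase strain than in any tumor of the mice carrying the control strain, a separation that 7.93% of all genes tested shared.

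Mice carrying a floxed Apc allele with Cre under the CDX2 promoter (Cdx2Apcf/w, C57BL/6 males, 6 to 8 weeks old at the start) were fed a 60% high-fat diet and repeatedly given Bacteroides fragilis 638R. The strain either carried an added bile salt hydrolase gene (bsh+, here BSHhigh) or did not (bsh-, here BSHlow), so the question was how this microbial enzyme, which frees bile acids from their conjugates, altered the colon. Normal colon was collected after 2 weeks (4 BSHlow and 4 BSHhigh libraries), and non-tumor colon (4 and 4) and tumors (4 BSHlow and 3 BSHhigh) after 12 weeks. The labels do not say whether a tumor and a non-tumor library of the same number came from one mouse, or whether libraries of one group came from separate mice, so p-values measure the spread between these libraries. All 6 groups shared the Apc genotype, the CDX2-Cre driver, which acts in the epithelium, and the diet, so neither the deletion nor the diet was compared with its absence. The 3 BSHhigh tumor libraries are lettered a, b and c because their columns could be tied to the group and not to a sample number.

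Library totals ran from 12401388 to 17903008 expected counts over the 23 libraries, and mitochondrial genes took 2.48% to 15.9% of them. Every pair of replicates differed by more than sampling noise (chi-square per degree of freedom 17.7 to 138 over 33 pairs), so each library counted as 1 replicate. Levels are in CPM, the count of a gene scaled to a common library size with the TMM factors of edgeR. Where genes are compared with each other the level is divided by transcript length (CPM per kb). A gene was called higher or lower where edgeR's quasi-likelihood test gave a Benjamini-Hochberg adjusted p under 0.05, over all genes tested, with at least a doubling or halving (a log2 fold change of 1 or more in size).

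Matrix metalloproteinases are zinc enzymes, made as inactive precursors, that cut extracellular matrix proteins, growth factors and other proteases. The stromelysins Mmp3 and Mmp10 and the matrilysin Mmp7 have broad substrates, Mmp13 is an interstitial collagenase, Mmp12 is the macrophage elastase, Mmp2 and Mmp9 are gelatinases, and Mmp14 is anchored in the membrane and activates the Mmp2 precursor. Timp1 and Timp3 bind the active enzymes and block them. Mmp3, Mmp10 and Mmp13 are made in inflamed and wounded gut mainly by stromal and migrating epithelial cells, and Mmp7 is made by epithelium, including Paneth cells and intestinal adenomas, where it is a known target of WNT signalling.

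Of the 10 genes, 5 lie together on chromosome 9 (GRCm38, the assembly also called mm10), at chr9:7272514-7699585, a stretch of 427.1 kb with 9 protein-coding metalloproteinase genes. In order along the plus strand these are Mmp13 (ENSMUSG00000050578.10, chr9:7272514-7283331), Mmp12 (ENSMUSG00000049723.14, chr9:7344381-7369499), Mmp3 (ENSMUSG00000043613.8, chr9:7445822-7455975), Mmp10 (ENSMUSG00000047562.3, chr9:7502352-7510240) and Mmp7 (ENSMUSG00000018623.9, chr9:7692090-7699585). The other five are dispersed, with Mmp2 (ENSMUSG00000031740.8) at chr8:92827291-92853420, Mmp9 (ENSMUSG00000017737.2) at chr2:164940780-164955850, Mmp14 (ENSMUSG00000000957.11) at chr14:54431612-54445364, Timp1 (ENSMUSG00000001131.11) at chrX:20870166-20874735 and Timp3 (ENSMUSG00000020044.13) at chr10:86300372-86349506.

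All 5 clustered genes were higher in tumors of both strains, as described below, and their promoters are shown for that reason. RefSeq start sites (GRCm38.p6) gave windows for 8 of the 10 genes, all but Mmp2 and Mmp9, with 10 windows in all because Mmp7 and Mmp12 have a pair of starts each. The AP-1 letters TGANTCA, which read the same on both strands, stood in the 250 bases upstream of a start in 5 of the 8 genes, against 7.82% of all 27025 genes, and in 5 of the 10 windows, against 6.75% of all 32851 windows. Those 5 genes were the 5 of the cluster. The 100 bases before the start that held the letters, 5′ to 3′ on the plus strand with the match in capitals, were as follows.
Mmp13, chr9:7272414-7272513: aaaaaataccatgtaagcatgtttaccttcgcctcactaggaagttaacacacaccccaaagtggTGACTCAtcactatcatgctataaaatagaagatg
Mmp12, second start, chr9:7347274-7347373: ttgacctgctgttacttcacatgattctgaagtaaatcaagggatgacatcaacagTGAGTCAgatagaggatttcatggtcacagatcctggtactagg
Mmp3, chr9:7445722-7445821: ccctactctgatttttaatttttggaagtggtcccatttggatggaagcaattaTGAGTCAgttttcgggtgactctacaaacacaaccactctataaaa
Mmp10, chr9:7502242-7502341: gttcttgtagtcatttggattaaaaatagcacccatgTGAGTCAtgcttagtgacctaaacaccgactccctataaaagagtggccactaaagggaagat
Mmp7, first start, chr9:7691990-7692089: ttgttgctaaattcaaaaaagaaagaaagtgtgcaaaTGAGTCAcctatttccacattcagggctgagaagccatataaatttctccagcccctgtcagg

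The match began 35 bases upstream of the start in Mmp13, 44 in Mmp12, 46 in Mmp3 and 63 in both Mmp10 and Mmp7. No match was found in the windows of Mmp14, Timp1 and Timp3. The ETS letters AGGAAG, searched on both strands, were common, in 29.5% of all windows and 32.3% of all genes. They stood in a window of Mmp3, Mmp7, Mmp12, Mmp13, Mmp14, Timp1 and Timp3, and Mmp10 alone had none. The TCF/LEF letters CTTTGAT or CTTTGTT stood in 8.06% of all windows, including the second start of Mmp7 and the first of Mmp12. A match of letters is a description of the sequence and not evidence of binding.

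Mmp3 and Mmp10 are close copies, and their counts are uncertain for that reason. Their coding sequences share an unbroken run of 104 bases across exons 2 and 3 of each (Mmp3 chr9:7447092-7447285, Mmp10 chr9:7503305-7503498, both including an intron), while the longest run shared by any other pair of the 8 metalloproteinases was 18 bases. The shared run is printed because a read lying inside it cannot be assigned to one of the genes.
Shared run of Mmp3 and Mmp10: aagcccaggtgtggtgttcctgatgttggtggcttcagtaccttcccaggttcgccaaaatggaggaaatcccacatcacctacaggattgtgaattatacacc

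In 6 of the 7 tumor libraries the counts of both genes were not whole numbers while their sum was whole within 0.01, which shows reads divided between them by the counting program. Of the 30-base windows of the Mmp3 coding sequence, 14.6% occurred in Mmp10. Genes on the opposite strand overlapped Timp1 (Syn1, 0 to 47 counts a library), Timp3 (Syn3, 4 to 27) and Mmp12 (Mmp1b, 0 to 3), and whether counting used the strand is not given in the sources used here.

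**Figure D1:**
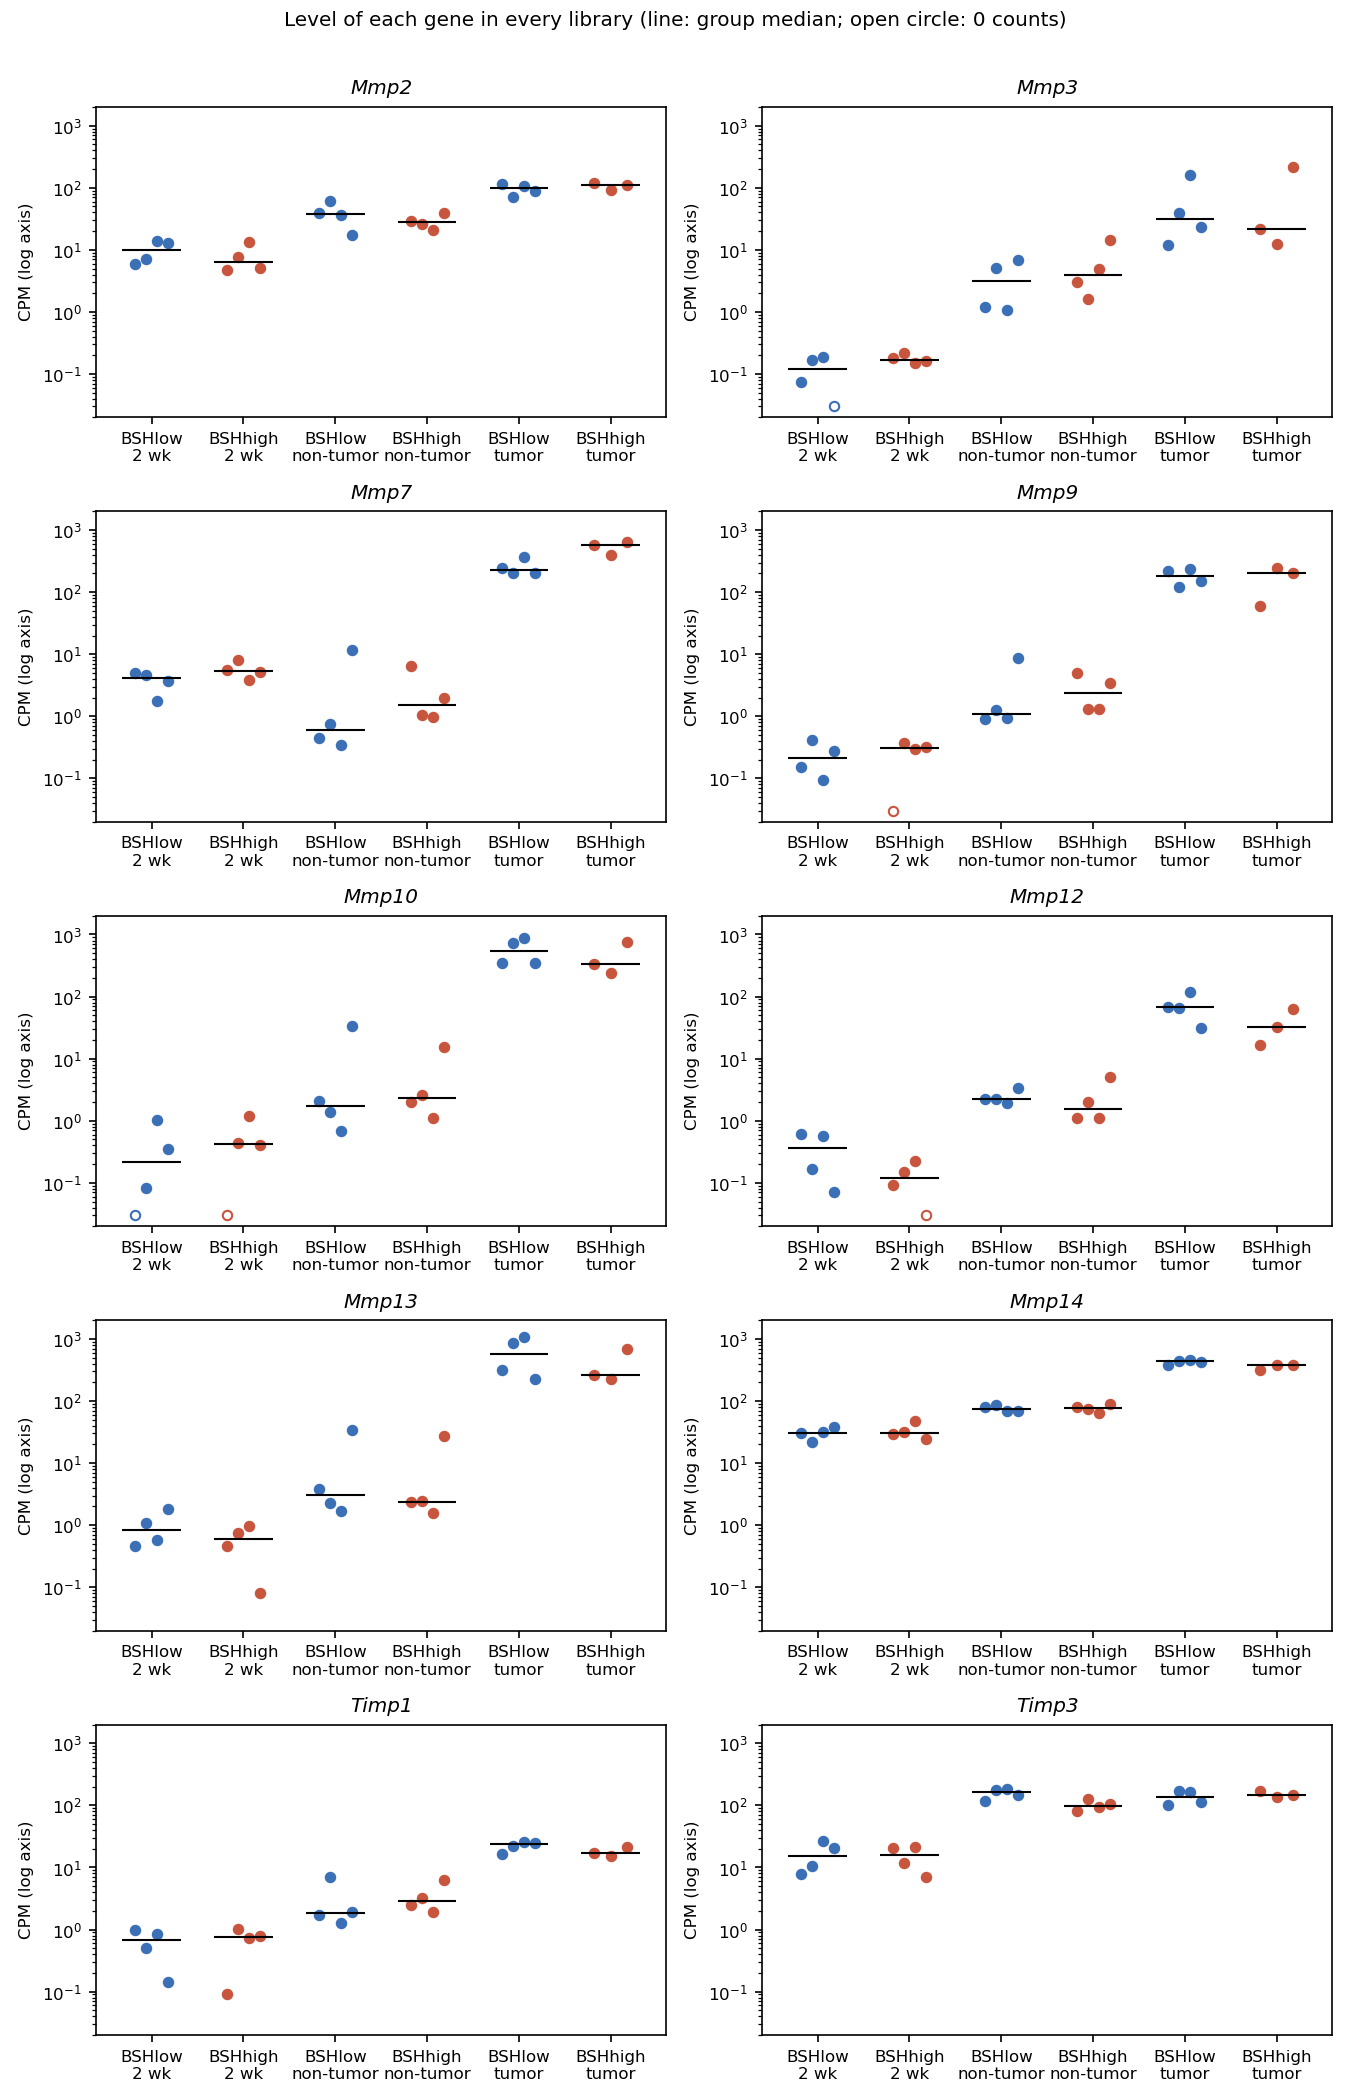
Level of each of the 10 genes in every library, in CPM on a log axis, by group; each point is 1 library. Apart from Timp3 in BSHlow mice and Mmp3 in BSHhigh mice, the tumors of each strain lie above all of its non-tumor libraries for every gene.

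Which genes dominated differed between tissues. Per kb of transcript, Mmp14 led at 2 weeks, with a mean of 11.7 CPM per kb in BSHlow and 12.8 in BSHhigh mice, above every other member in every library range. In non-tumor colon at 12 weeks Timp3 (33.0 CPM per kb in BSHlow, 21.5 in BSHhigh) and Mmp14 (29.2 and 29.6) led and overlapped each other in range, followed by Mmp2 (12.4 and 9.49). In BSHlow tumors the order was Mmp10 (335), Mmp7 (238), Mmp13 (230) and Mmp14 (164), neighbours whose ranges overlapped, and a gap without overlap separated Mmp14 from Mmp9 (56.9). Mmp3 (32.4), Mmp2 (30.9), Timp3 (29.2), Timp1 (25.3) and Mmp12 (19.7) followed, each overlapping the next. In BSHhigh tumors Mmp7 (507 CPM per kb) stood first and Mmp10 (256) second, again with overlapping ranges.

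The summed level of the 8 metalloproteinases was 15.8 to 27.7 CPM per kb at 2 weeks, 37.3 to 83.5 in non-tumor colon and 743 to 1692 in tumors, with no overlap between the tissues. The ratio of this sum to that of Timp1 and Timp3 was 2.92 to 6.81 at 2 weeks, 1.01 to 2.69 in non-tumor colon and 14.4 to 30.3 in tumors. These are sums of RNA levels over the chosen genes and not of enzyme activity. They leave out Mmp15 and the inhibitor Timp2. Timp2 stood at 11.2 to 23.3 CPM at 2 weeks, 49.0 to 150 CPM in non-tumor colon and 117 to 173 CPM in tumors. Its transcript is 3.709 kb long. Timp3, at 4.722 kb, held 103 to 172 CPM in tumors. The ratio is therefore not that of all metalloproteinases to all inhibitors.

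**Figure D2:**
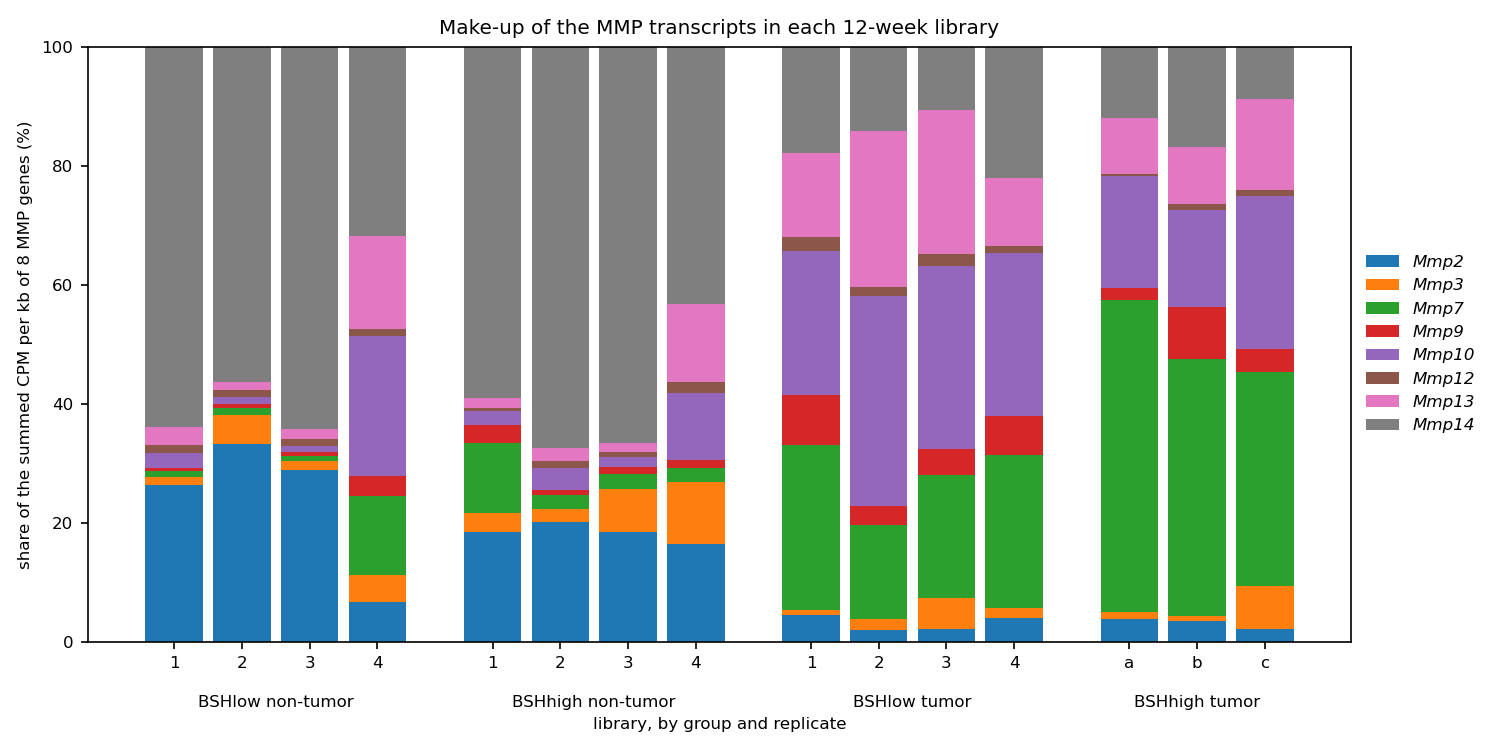
Makeup of the summed level (CPM per kb) of the 8 metalloproteinases chosen, in each non-tumor and tumor library, as the percent contributed by each. Mmp15 and other metalloproteinases are not in the sum. Of the 8, Mmp14 makes up the largest share in the non-tumor libraries. Mmp10, Mmp7 and Mmp13 together take most of the sum in the tumors. Mmp7 stands at 36.0% to 52.5% in BSHhigh and 15.9% to 27.7% in BSHlow tumors.

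The first comparison asked how tumors differed from the non-tumor colon of mice given the same strain. In BSHlow mice 9 of the 10 genes were called higher in tumors, where 16.7% of all 16454 genes tested were, and the same number in BSHhigh mice, where 14.6% were. The median log2 fold change of the 10 genes was 4.41 in BSHlow and 3.93 in BSHhigh mice, against 0.04 over all genes in both. Timp3 was the gene not called in either.

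Mmp7, the matrilysin, had the largest change. In non-tumor colon of BSHlow mice it stood at 0.445, 0.745, 0.341 and 11.9 CPM and in that of BSHhigh mice at 6.56, 1.06, 0.970 and 1.95 CPM. In BSHlow tumors it stood at 243, 206, 363 and 205 CPM and in BSHhigh tumors at 573, 401 and 650 CPM. All tumors lay far above all non-tumor libraries, among which BSHlow replicate 4 and BSHhigh replicate 1 were high. The log2 fold change was 6.19 in BSHlow mice (SE 0.92, adjusted p = 4.252e-05, edgeR) and 7.67 in BSHhigh mice (SE 0.997, adjusted p = 2.192e-05), and without BSHlow non-tumor replicate 4 the first was 8.90.

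Mmp10, a stromelysin, was at 2.08, 1.37, 0.682 and 34.1 CPM in BSHlow and 2.00, 2.62, 1.09 and 15.3 CPM in BSHhigh non-tumor colon. In tumors it reached 343, 737, 877 and 351 CPM (BSHlow) and 331, 244 and 749 CPM (BSHhigh). No tumor overlapped a non-tumor library, although replicate 4 of each non-tumor group stood well above its group. The log2 fold changes were 5.86 (SE 1.17, adjusted p = 0.0005178, edgeR) and 6.42 (SE 1.23, adjusted p = 0.0005503), and without non-tumor replicate 4 they were 8.70 and 7.84.

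Mmp3, the other stromelysin, was the most uneven gene among tumors. It stood at 1.19, 5.10, 1.09 and 6.77 CPM in BSHlow non-tumor colon and at 3.06, 1.62, 4.91 and 14.7 CPM in BSHhigh non-tumor colon. The tumors held 12.0, 39.6, 158 and 23.7 CPM (BSHlow) and 21.95, 12.6 and 217 CPM (BSHhigh), an 18.1-fold range, with one high tumor in each strain. The BSHlow groups did not overlap, whereas the lowest BSHhigh tumor lay below the highest BSHhigh non-tumor library. The log2 fold changes were 3.99 (SE 1.11, adjusted p = 0.00568, edgeR) and 3.80 (SE 1.11, adjusted p = 0.009454). The BSHhigh call was lost without tumor c (log2 fold change 1.52, adjusted p = 0.218), the BSHlow value fell to 2.77 without tumor 3, and limma-voom called neither (adjusted p 0.0944 and 0.103).

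Mmp13, the collagenase, was at 3.85, 2.29, 1.70 and 34.7 CPM in BSHlow and 2.37, 2.43, 1.58 and 27.6 CPM in BSHhigh non-tumor colon. Its tumor levels were 312, 850, 1068 and 226 CPM (BSHlow) and 258, 224 and 692 CPM (BSHhigh). The pattern was that of Mmp10, with replicate 4 of each non-tumor group high and no overlap with tumors. The log2 fold changes were 5.80 (SE 1.20, adjusted p = 0.0006848, edgeR) and 5.54 (SE 1.21, adjusted p = 0.001456), rising to 7.87 and 7.51 without those libraries.

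Mmp12, the macrophage elastase, held 2.22, 2.23, 1.91 and 3.42 CPM in BSHlow and 1.12, 1.99, 1.09 and 5.01 CPM in BSHhigh non-tumor colon. In tumors it held 68.3, 66.5, 119 and 31.0 CPM (BSHlow) and 16.6, 32.1 and 64.1 CPM (BSHhigh). All tumors exceeded all non-tumor libraries, with log2 fold changes of 4.83 (SE 0.57, adjusted p = 4.577e-06, edgeR) and 4.05 (SE 0.58, adjusted p = 4.696e-05). Of the 6 macrophage markers, none was called higher in BSHlow tumors and 1 was in BSHhigh tumors, with summed levels of 56.4 to 203 and 140 to 220 CPM in non-tumor colon and 124 to 327 and 244 to 347 CPM in tumors.

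The gelatinases differed in the size of their change. Mmp9 stood at 0.889, 1.26, 0.954 and 8.77 CPM in BSHlow and 5.06, 1.31, 1.33 and 3.44 CPM in BSHhigh non-tumor colon. In tumors it stood at 217, 119, 234 and 153 CPM (BSHlow) and 60.9, 244 and 207 CPM (BSHhigh). Tumors lay above every non-tumor library, with log2 fold changes of 5.88 (SE 0.75, adjusted p = 9.599e-06, edgeR) and 5.93 (SE 0.77, adjusted p = 2.059e-05), the first of them 7.42 without BSHlow non-tumor replicate 4.

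Mmp2 was already expressed in non-tumor colon, at 38.5, 60.9, 36.5 and 17.1 CPM in BSHlow and 29.6, 26.5, 21.1 and 39.6 CPM in BSHhigh mice. Tumors held 114, 71.1, 106 and 89.3 CPM (BSHlow) and 120, 93.3 and 113 CPM (BSHhigh). The groups did not overlap, and the change was the smallest of the 9 called genes in both strains, with log2 fold changes of 1.30 (SE 0.29, adjusted p = 0.001192, edgeR) and 1.89 (SE 0.31, adjusted p = 0.0001515).

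Mmp14, the membrane-anchored activator of Mmp2, was the most even gene among tumors. Non-tumor colon held 78.8, 86.9, 68.4 and 69.0 CPM (BSHlow) and 79.9, 74.8, 64.5 and 87.9 CPM (BSHhigh). Tumors held 379, 445, 457 and 426 CPM (BSHlow) and 315, 379 and 385 CPM (BSHhigh), a 1.45-fold range over all 7. The log2 fold changes were 2.47 (SE 0.11, adjusted p = 5.043e-09, edgeR) and 2.22 (SE 0.12, adjusted p = 3.526e-08).

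The inhibitors parted. Timp1 stood at 1.70, 6.93, 1.29 and 1.94 CPM in BSHlow and 2.50, 3.24, 1.94 and 6.21 CPM in BSHhigh non-tumor colon, and at 16.2, 22.5, 26.2 and 24.4 CPM and 17.3, 15.04 and 21.3 CPM in the tumors. Every tumor exceeded every non-tumor library, with log2 fold changes of 2.88 (SE 0.47, adjusted p = 9.419e-05, edgeR) and 2.36 (SE 0.48, adjusted p = 0.0008617).

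Timp3, the matrix-bound inhibitor, stood at 116, 178, 185 and 146 CPM in BSHlow non-tumor colon and at 103, 172, 164 and 113 CPM in BSHlow tumors. These ranges overlapped almost wholly, with a log2 fold change of -0.20 (SE 0.19, adjusted p = 0.3783, edgeR). In BSHhigh mice it stood at 79.9, 129, 93.4 and 104 CPM in non-tumor colon and at 168, 135 and 149 CPM in tumors, without overlap. The log2 fold change there was 0.56 (SE 0.20, adjusted p = 0.03137), below the size needed for a call.

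Counted by separation, 9 of the 10 genes had tumors wholly above non-tumor colon in BSHlow mice, where 29.5% of all genes did, and 9 in BSHhigh mice, where 32.3% did. The missing gene was Timp3 in the former and Mmp3 in the latter.

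**Figure D3:**
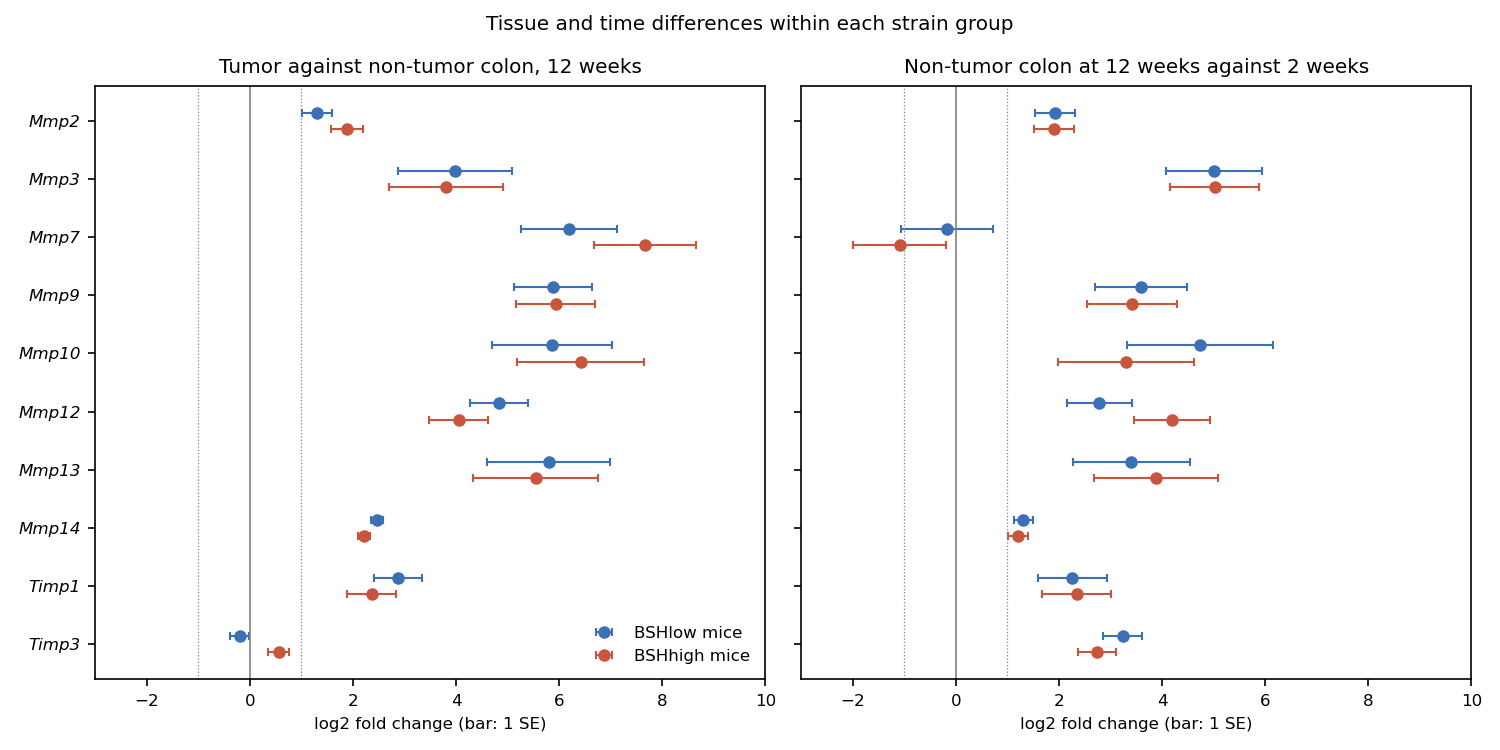
Log2 fold change of each of the 10 genes with its standard error, for tumors against non-tumor colon and for non-tumor colon at 12 weeks against normal colon at 2 weeks, in BSHlow and BSHhigh mice. Mmp7 has the largest tumor change in both strains and no called change with time, and Timp3 has the reverse, a called rise with time and none in tumors.

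The rest of the family and its surroundings were read from lists of known genes. Of the 15 other metalloproteinases, 10 were tested in this comparison. In BSHlow mice 6 rose and 1 fell, and in BSHhigh mice 3 rose and 1 fell. Mmp20, which lies in the chromosome 9 cluster and is known as the enamel protease, was called higher in both strains, at 0 to 0.0645 CPM in non-tumor colon and 0.526 to 1.67 CPM in tumors. Mmp11, known as a stromal enzyme of carcinomas, rose by 2.34 and 2.94, and Mmp8, the neutrophil collagenase, was called higher in BSHlow mice and not in BSHhigh mice. Mmp8 and Mmp20 were too low for a test among non-tumor libraries alone, so they entered this comparison through the tumors and had to differ. Mmp17, a membrane-anchored enzyme, fell, with log2 fold changes of -2.56 and -2.07.

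Among the 4 other inhibitors, Timp4 fell in both strains (log2 fold changes -4.72 and -2.79). Reck, a membrane-anchored inhibitor, fell in BSHlow mice (-1.25) and was not called in BSHhigh mice (-0.74), while Timp2, which also takes part in Mmp2 activation, was not called in BSHlow mice (0.55) and rose in BSHhigh mice (1.10). A2m was called in neither.

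The plasminogen system, whose product plasmin activates several metalloproteinase precursors, had 5 of 8 tested genes higher and 1 lower in BSHlow mice, and 6 higher and 1 lower in BSHhigh mice. The activators Plau (log2 fold changes 3.36 and 3.01) and Plat (4.83 and 4.06), the receptor Plaur (3.08 and 2.09) and the inhibitor Serpine2 (2.62 and 2.92) rose in both. The plasminogen receptor gene Plgrkt fell (-2.41 and -1.52). Of 15 ADAM and ADAMTS genes, relatives of the same enzyme clan, 7 rose and 3 fell in BSHlow mice, and 8 rose and 2 fell in BSHhigh mice.

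All 9 cytokines listed as inducers of metalloproteinases rose in both strains, among them Il1b (log2 fold changes 3.85 and 1.95), Il1a (4.84 and 3.19) and Tnf (2.34 and 2.22). Il6, Il11 and Il17a were too low for a test among non-tumor libraries alone and had to differ. The same held for Fosl1, Serpinf2, Adam28, Notum and, among the markers below, Defa17, Defa24, Cxcr2 and Retnlg. All 10 members passed the filter among non-tumor libraries alone. Of 12 AP-1 and ETS factors, the families whose letters were searched in the promoters, 5 rose in BSHlow and 4 in BSHhigh mice and none fell. Fosl1 (4.04 and 3.51), Jun (1.24 and 1.12), Ets2 (1.27 and 1.19) and Etv5 (4.72 and 3.70) rose in both, and Fos was not called (-1.23 and -1.30). Of 10 matrix substrates, 7 rose and 1 fell in BSHlow mice and 6 rose and none fell in BSHhigh mice. Spp1, the osteopontin gene, rose by 6.47 and 5.98, the basement membrane collagen Col4a1 rose by 2.32 and 1.80, and elastin, Eln, fell in BSHlow mice (-3.82) and was not called in BSHhigh mice (-0.80).

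The tissues also differed in cell markers. In bulk RNA, fewer cells of a type and less RNA per cell cannot be told apart. All 6 smooth muscle markers fell in both strains, with summed levels of 1512 to 8472 CPM in BSHlow and 3285 to 4341 CPM in BSHhigh non-tumor colon against 117 to 252 and 178 to 344 CPM in tumors. Mature colonocyte markers fell for 6 of 6 in BSHlow and 5 of 6 in BSHhigh mice. WNT target genes rose for 10 of 10 and 9 of 10, and Paneth cell markers for 5 of 6 in both, from summed levels of 33.1 to 55.1 and 27.4 to 71.6 CPM to 340 to 534 and 585 to 790 CPM. Neutrophil markers rose for 5 of 6 and 3 of 6, with Ly6g called lower in both strains. Epithelial markers rose for 1 of 6 in both and fell for 2 of 6 in BSHlow and none in BSHhigh mice. Markers of fibroblasts rose for 2 and fell for 3 of 6 in BSHlow mice, and rose for 2 and fell for 2 in BSHhigh mice. Neuron and glia markers fell for 5 of 5 and 4 of 5, T and B cell markers fell for 4 of 7 in BSHlow mice and fell for 3 and rose for 1 in BSHhigh mice, and endothelial markers rose for 2 of 5 in both. The part of these shifts in the metalloproteinase changes was not tested.

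The non-tumor libraries were uneven, and the same few stood out across genes. BSHlow replicate 4 was highest of the 8 for Mmp7, Mmp9, Mmp10 and Mmp13, and BSHhigh replicate 4 was highest for Mmp3 and Mmp12 and next for Mmp10 and Mmp13. BSHhigh replicate 1 was second for Mmp7 and Mmp9. BSHlow replicate 4 also held 5.93 CPM of Notum, a WNT target at 0 to 1.25 CPM in the other 7 and 150 to 339 CPM in tumors, and the lowest smooth muscle sum (1512 CPM). BSHhigh replicate 1 held the most S100a8 (37.2 CPM) and S100a9 (73.6 CPM), both made by neutrophils. The part of these marker levels in the metalloproteinase levels was not tested.

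The second comparison set the non-tumor colon at 12 weeks against the normal colon at 2 weeks. Mouse age, weeks of diet, weeks of colonization and presence of tumors changed together and cannot be told apart. In both strains 9 of the 10 genes were called higher at 12 weeks, where 17.0% of the 15532 genes tested were higher in BSHlow and 16.8% in BSHhigh mice, and Mmp7 was the gene not called. At 2 weeks Mmp3, Mmp9, Mmp10, Mmp12, Mmp13 and Timp1 were near the detection limit, with 0 to 26 counts a library, so that they entered the test through the 12-week libraries and had to differ. The 9 are therefore not a measure of how general the rise was.

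The genes measurable at both times carry the comparison. Timp3 stood at 7.87, 10.5, 27.1 and 20.4 CPM in BSHlow and 20.2, 11.8, 21.7 and 7.12 CPM in BSHhigh normal colon, below all the non-tumor values of 79.9 to 185 CPM given above. Its log2 fold changes were 3.23 (SE 0.38, adjusted p = 8.09e-06, edgeR) and 2.75 (SE 0.37, adjusted p = 3.005e-05).

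Mmp14 stood at 29.96, 22.002, 31.7 and 37.7 CPM (BSHlow) and 29.3, 31.2, 48.1 and 24.8 CPM (BSHhigh) at 2 weeks, below every 12-week library. Its log2 fold changes were 1.31 and 1.21 (SE 0.19 in both). Mmp2 stood at 5.98, 7.25, 13.9 and 12.8 CPM and at 4.81, 7.80, 13.5 and 5.04 CPM, again below every 12-week library, with log2 fold changes of 1.93 and 1.90.

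Mmp7 did not follow. It stood at 4.92, 4.58, 1.80 and 3.72 CPM in BSHlow and 5.53, 8.09, 3.78 and 5.12 CPM in BSHhigh colon at 2 weeks, above most of the 12-week non-tumor libraries. The log2 fold changes were -0.17 (adjusted p = 0.8904, edgeR) and -1.09 (adjusted p = 0.3291), neither called. Without BSHlow non-tumor replicate 4, Mmp7 was called lower at 12 weeks in BSHlow mice (-2.86, adjusted p = 0.002681).

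Among the genes near the limit at 2 weeks, Mmp3 had 0 to 3 counts a library (at most 0.221 CPM) and log2 fold changes of 5.004 and 5.02, and Mmp9 had 0 to 5 counts (at most 0.417 CPM) and log2 fold changes of 3.59 and 3.42, the first of them 2.07 without BSHlow non-tumor replicate 4. Mmp12 had 0 to 8 counts (at most 0.605 CPM) and log2 fold changes of 2.79 and 4.18. Fitted changes of genes this close to 0 depend on the prior count of the method.

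The calls of 3 such genes rested on single libraries. Mmp10 changed by 4.73 (adjusted p = 0.01187, edgeR) and 3.30 (adjusted p = 0.04958) on the log2 scale, and without non-tumor replicate 4 of each strain by 1.93 (adjusted p = 0.1628) and 1.86 (adjusted p = 0.2597). The BSHhigh call of Mmp10 was also lost without 2-week replicate 1, 2 or 4 or non-tumor replicate 2 (2.92 to 3.52, adjusted p 0.05288 to 0.1098). Mmp13 changed by 3.40 and 3.88, and without the same libraries as Mmp10 by 1.37 (adjusted p = 0.2365) and 1.90 (adjusted p = 0.1371). Its BSHlow call was also lost without 2-week replicate 1 or 3 (adjusted p 0.05866 and 0.05257), and limma-voom called neither Mmp10 nor Mmp13 in either strain (adjusted p 0.1404 to 0.1773). Timp1 changed by 2.26 and 2.34, and the BSHlow call was lost without non-tumor replicate 2 (1.41, adjusted p = 0.07479).

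By separation, 7 genes had all 12-week libraries above all 2-week libraries in BSHlow mice, where 21.7% of genes did, and 8 in BSHhigh mice, where 25.1% did. Of these, Mmp3, Mmp9, Mmp12 and Timp1, and Mmp13 in BSHhigh mice, were among the genes that had to differ, so the counts carry the same limit as the 9 calls. Mmp7 and Mmp10 overlapped in both strains and Mmp13 in BSHlow mice.

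The other gene lists carry the same limit, since many of their genes were too low for a test among the 2-week libraries alone. All 4 other inhibitors were higher at 12 weeks in both strains, Timp4 and A2m among those too low at 2 weeks, with Timp2 at log2 fold changes of 2.41 and 2.15 and Reck at 2.76 and 2.17. Of 7 other metalloproteinases tested, 4 rose and 1 fell in BSHlow and 5 rose in BSHhigh mice, of which Mmp19 (2.39 and 2.71) was measurable at 2 weeks and Mmp11, Mmp17, Mmp23 and Mmp25 were not. Of the matrix substrates, 9 of 10 rose in both, and 4 of 7 plasminogen system genes rose and Serpinf2 fell in both. ADAM and ADAMTS genes rose for 11 and 10 of 14, AP-1 and ETS factors for 2 and 3 of 12 with Etv5 lower in BSHlow mice, and cytokines for 3 and 5 of 6.

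Markers of the deeper gut wall were higher at 12 weeks too. All 6 smooth muscle markers were higher at 12 weeks in both strains (median log2 fold changes 5.54 and 5.29), with summed levels of 45.2 to 174 and 7.08 to 206 CPM at 2 weeks against the 1512 to 8472 CPM and 3285 to 4341 CPM given above. All 6 macrophage markers, all 5 neuron and glia markers and 4 of 6 fibroblast markers were higher in both strains as well. WNT target genes rose for 1 of 9 in each strain (Nkd1), with Lgr5 lower in BSHlow mice (-1.16, adjusted p = 0.006774, edgeR). Of the mature colonocyte markers, 3 of 6 fell in both strains, Car1 (log2 fold changes -5.17 and -6.08), Cyp2c55 (-7.29 and -8.05) and Krt20 (-1.51 and -1.47). How far the amount of muscle and stroma in the samples set the levels of Timp3, Mmp2 and Mmp14 was not tested.

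The third comparison asked what the bile salt hydrolase strain changed. In tumors none of the 10 genes was called by edgeR, where 0.476% of the 15325 genes tested were (71 higher and 2 lower in BSHhigh tumors). At an unadjusted p under 0.05 there were 1946 such genes.

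Mmp7 had the strongest difference of the 10. The BSHhigh tumors, at 573, 401 and 650 CPM, all lay above the BSHlow tumors, at 243, 206, 363 and 205 CPM. It was the one gene of the 10 whose tumor groups did not overlap, a separation that 7.93% of all genes tested showed in the same direction and 3.94% in the other. The difference was 2.12-fold, a log2 fold change of 1.08 (SE 0.24, adjusted p = 0.09176, edgeR), short of the threshold. The call depended on the method. DESeq2 gave the same size with an adjusted p of 0.0008901 and edgeR without a filter on low counts an adjusted p of 0.04007, whereas limma-voom gave 0.1245, and edgeR fitted on all 23 libraries gave 0.4678. Leaving out each tumor in turn gave log2 fold changes of 0.93 to 1.30 and adjusted p-values of 0.08459 to 0.3223.

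Beside this difference, Paneth cell markers had summed levels of 585 to 790 CPM in BSHhigh and 340 to 534 CPM in BSHlow tumors, without overlap, and none of the 6 was called. Lyz1, the lysozyme of Paneth cells, stood at 485, 373 and 471 CPM in BSHhigh and 318, 257, 168 and 206 CPM in BSHlow tumors, with a log2 fold change of 0.89 (adjusted p = 0.1226, edgeR). Lyz1 was the largest part of each sum and the only marker of the 6 whose tumor groups did not overlap. Itln1, for example, ran from 53.4 to 83.8 CPM in BSHhigh and from 45.5 to 66.1 CPM in BSHlow tumors. The WNT target genes summed to 1261 to 1811 CPM in BSHhigh and 1735 to 2234 CPM in BSHlow tumors, and none of the 10 was called. Mature colonocyte markers, at 142 to 694 against 51.7 to 135 CPM, had 2 of 5 tested called higher in BSHhigh tumors. Of the neutrophil markers Ly6g alone of 6 was called, higher in BSHhigh tumors (log2 fold change 2.85, adjusted p = 0.03427, edgeR). Ly6g did not run with the other neutrophil markers in these libraries. It stood at 139 to 253 CPM in non-tumor colon and 5.56 to 76.8 CPM in tumors, while S100a8 stood at 0.136 to 37.2 and 11.3 to 150 CPM. The Ly6g call is therefore not a measure of neutrophils here. T and B cell markers summed to 16.9 to 32.2 CPM in BSHhigh and 1.75 to 11.3 CPM in BSHlow tumors, without overlap, and none of the 5 tested was called. The part of these shifts in the Mmp7 difference was not tested.

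The other members overlapped between the tumor groups. Mmp12 (log2 fold change -0.92, SE 0.53), Mmp13 (-0.65, SE 0.61), Mmp10 (-0.39, SE 0.47), Timp1 (-0.33, SE 0.19) and Mmp14 (-0.26, SE 0.11) had lower means in BSHhigh tumors, and Mmp3 (0.53, SE 1.11), Mmp2 (0.18, SE 0.18) and Timp3 (0.12, SE 0.19) higher ones, with adjusted p-values of 0.3926 to 0.8803 for the 8. Mmp9 differed by -0.10 (SE 0.44, adjusted p = 0.9478). Mmp3 was set by single tumors, from -1.76 to 1.75 when each was left out.

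The makeup of the family in the tumors is given as a description, with no test. Mmp7 made up 36.0% to 52.5% of the summed metalloproteinase level in BSHhigh tumors and 15.9% to 27.7% in BSHlow tumors, and Mmp10 16.3% to 25.7% against 24.3% to 35.3%. The sum itself ran from 870 to 1692 CPM per kb in BSHhigh and from 743 to 1654 CPM per kb in BSHlow tumors, ranges that overlap almost wholly.

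**Figure D4:**
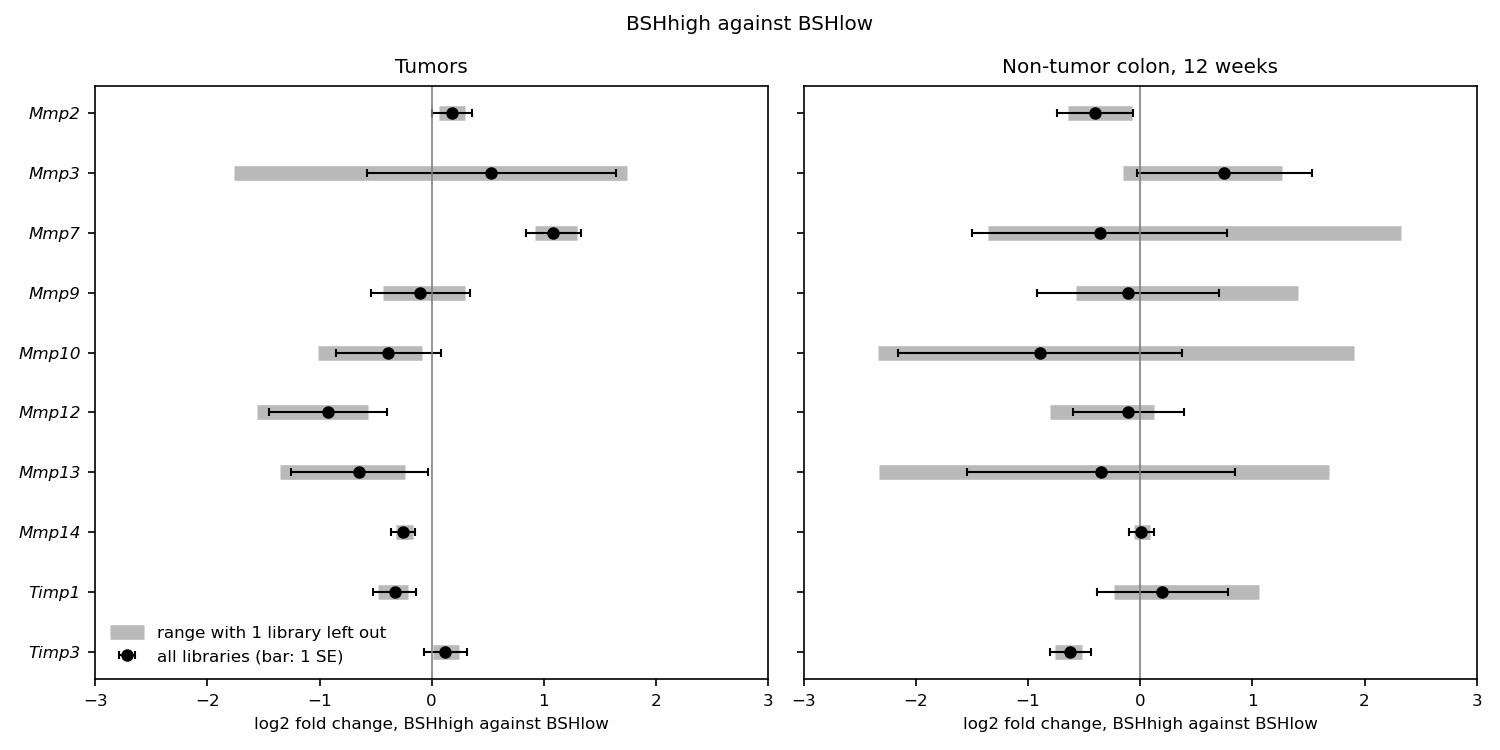
Log2 fold change of BSHhigh against BSHlow mice for each of the 10 genes with its standard error, in tumors and in non-tumor colon. Grey marks the range of values when each library is left out in turn. Mmp7 in tumors, at 1.08, is the value farthest from 0 relative to its error, and no gene is called in either tissue.

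In non-tumor colon none of the 10 genes was called between strains by edgeR, where 0.0% of the 14933 genes tested were, with 1377 at an unadjusted p under 0.05. All 10 overlapped, where 3.23% of genes lay wholly higher and 2.16% wholly lower in BSHhigh mice. Timp3 came nearest, at 79.9 to 129 CPM in BSHhigh and 116 to 185 CPM in BSHlow mice, with a log2 fold change of -0.62 (SE 0.18, adjusted p = 0.4022, edgeR). Mmp7 (-0.36, SE 1.14), Mmp10 (-0.89, SE 1.26) and Mmp13 (-0.35, SE 1.19) had errors larger than their differences, with the uneven libraries described above in both groups. Mmp14 differed by 0.01.

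In normal colon at 2 weeks 4 of the 10 genes had enough counts to be tested, and none was called, where 0.00727% of 13752 genes were. The log2 fold changes were 0.57 for Mmp7 (adjusted p = 0.8075, edgeR), 0.13 for Mmp14, -0.12 for Timp3 and -0.36 for Mmp2. For the 6 genes with few counts a difference between strains was not detectable at this depth.

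Whether the strain effect differed between tumor and non-tumor colon was tested as an interaction, and none of the 10 genes was called, where 0.978% of all genes were. For Mmp7 the strain effect in tumors exceeded that in non-tumor colon by 1.48 on the log2 scale (SE 1.18, adjusted p = 0.7925, edgeR), a value that ran from -1.23 to 2.49 as single libraries were left out. The same test between 12 and 2 weeks called none of the 10, where 0.0% of genes were called and 1135 had an unadjusted p under 0.05.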

How the data were processed

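RNA of mouse colon was sequenced by the authors from stranded TruSeq libraries. The labels name the total RNA kit and the study's methods an mRNA kit. Reads were trimmed with Cutadapt, aligned to mm10 with STAR, checked with Picard and counted with RSEM by the authors, without normalization. Deposited values are expected counts per gene, rounded here to whole numbers. The 3 BSHhigh tumor columns repeat header names of BSHlow tumors and were assigned to their group through the study's own table of tumor values, not to numbered samples. A row that names no gene and 1 gene not reported here were left out.

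edgeR 4.0.16 (R 4.3.3) with filterByExpr, TMM scaling and a quasi-likelihood test was fitted over all genes, for each strain comparison on its own libraries and for tissue, time and interaction comparisons on the groups they join. DESeq2 1.42.0, limma-voom (limma 3.58.1), RLE scaling, no filter, all 23 libraries, leaving out each library, the replicate number as a block and Mmp3 with Mmp10 as 1 gene (added after seeing the data) were alternatives. The steps were tested on simulated data. Totals bound precision, and read counts without molecular identifiers cover counting error only. Sequences come from RefSeq (GRCm38.p6) and the GRCm38 genome, lengths from GENCODE transcripts, and figures were drawn with matplotlib 3.10.9. All 10 members are named; other list genes are named where called or needed. The members and the gene lists were chosen with earlier results of these data known.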

Additional observations from a re-analysis of the deposited data

Results flagged for a closer look

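Within groups of 4 libraries, 3 of the 50 values tested had a library set apart from the others, measured as its gap to the nearest library over the range of the group on the log2 CPM scale with a prior count of 2 (Dixon's ratio, above its 95% critical value for 4). Chance gives about 1 in 20. Mmp9 in normal colon of BSHhigh mice at 2 weeks had replicate 1 at 0 CPM, below the others (ratio 0.886), from 0 against 4 to 5 counts. Mmp9 in BSHlow non-tumor colon had replicate 4 at 8.77 CPM against 0.889 to 1.26 CPM (ratio 0.857). Mmp13 in BSHhigh non-tumor colon had replicate 4 at 27.6 CPM against 1.58 to 2.43 CPM (ratio 0.854). On the linear CPM scale, tried after seeing the data, 7 values passed instead: Mmp7, Mmp9, Mmp10 and Mmp13 in BSHlow non-tumor replicate 4 (ratios 0.935 to 0.965), Mmp10 (0.892) and Mmp13 (0.967) in BSHhigh non-tumor replicate 4 and Timp1 in BSHlow non-tumor replicate 2 (0.886). The groups of 3 tumors were not tested in this way.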

How the results depend on the processing

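The count of members called kept within 1.5 times its value in every comparison and alternative except in tumors between strains, where 0 genes with edgeR became 1, Mmp7, with DESeq2 and 1, Mmp7, with no filter on low counts. Counts of members higher in tumors were 8 to 9 in both strains, and of members higher at 12 weeks 7 to 9. Over all genes the tumor strain comparison gave 73 calls with edgeR, 534 with DESeq2, 320 with no filter, 41 with limma-voom and 578 on all 23 libraries, and 0 to 240 with a tumor left out.

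Signs turned only for values not called. In non-tumor colon between strains, Mmp7 and Mmp9 became positive with limma-voom (0.74 and 0.36) and with the replicate number as a block (0.70 and 0.34). Leaving out single libraries gave in tumors -1.76 to 1.75 for Mmp3 and -0.44 to 0.30 for Mmp9. In non-tumor colon it gave -0.16 to 1.26 for Mmp3, -1.36 to 2.32 for Mmp7, -0.57 to 1.40 for Mmp9, -2.33 to 1.90 for Mmp10, -0.80 to 0.13 for Mmp12, -2.33 to 1.68 for Mmp13, -0.059 to 0.085 for Mmp14 and -0.23 to 1.06 for Timp1. At 2 weeks it gave -0.10 to 0.25 for Mmp14 and -0.36 to 0.22 for Timp3, over time in BSHlow mice -2.86 to 0.21 for Mmp7, and for the Mmp7 interaction with tissue -1.23 to 2.49. The cause of these turns was not tested.

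The labels do not tie libraries of the same number in different groups to one animal. Their deviations from the group mean correlated by -0.25 to 0.336, with at most 1 of 4 pairs over 0.1. Nearness was counted over the 4 libraries of 1 group and the 4 of the other together. Between BSHlow non-tumor colon and BSHlow tumors 4 of all these were nearest to their own number. Between the other groups compared 0 to 2 were. Low correlations cannot exclude a shared animal, since samples of one mouse need not deviate alike, so the pairing stays unknown. As a block, the replicate number ended the time calls of Mmp10 (log2 fold changes 3.78 and 2.93, adjusted p 0.07131 and 0.06168), of Mmp13 in BSHhigh (2.77, adjusted p 0.08832) and of Timp1 in BSHlow mice (2.07, adjusted p 0.05683), and changed no other call of a member. It was not fitted with the BSHhigh tumors, whose columns carry no number of their own. DESeq2 gave no adjusted p for Mmp7, Mmp10 and Mmp13 in non-tumor colon and for Mmp10 and Mmp13 over time.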

Other observations

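For each member, the genes whose log2 CPM, centred on its own mean, ran closest to it over the 23 libraries were listed from 14402 genes, as a description of these libraries that mixes tissue, time and strain. Mmp10 and Mmp13 were each other's nearest gene, with a mean absolute difference of 0.79 on the log2 scale. Il11, a cytokine of the IL-6 family, came next for Mmp13 (0.82) and the neutrophil chemokine Cxcl5 was also near Mmp10 (0.83). The chemokine Cxcl3 was near Mmp3 (0.88). Mmp7 was nearest to Cfi, complement factor I (0.68), and Slc30a2, a zinc transporter (0.73). Mmp9 was nearest to Spock2 (0.57) and Mmp12 to Rem2 (0.58). Mmp2 was nearest to Lamb1, a laminin chain (0.22), with Pdgfra, a fibroblast receptor, also near (0.26), Mmp14 to Tulp3 (0.18), Timp1 to Ctxn1 (0.46) and Timp3 to Rdx (0.30).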
